A study of Homo sapiens with 4 samples.

Results

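Mitochondrial ribosomal protein genes were taken as all genes whose symbol starts with MRPL or MRPS and a digit in the platform's probe annotation. The rule found 79 of 18665 named genes, carried by 113 of 48803 probes. The cells were Cp70sps, obtained from the Cp70 ovarian cancer line through their exclusion of a Hoechst dye and labelled as tumour-initiating. Culture was without serum and without attachment, with insulin, BSA, bFGF and EGF added, and the labels name the same line and the same selection for every group. Total RNA was measured on human Illumina bead arrays after 0, 2, 4 and 6 h of 3 µM niclosamide, with 1 array per time. Niclosamide is a drug against tapeworms that also acts as a mitochondrial uncoupler. The 0 h cells are the reference for each later time, and no drug-free culture was measured at 2, 4 or 6 h, so time of exposure and time in culture cannot be told apart.

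The mitochondrial ribosome makes the few proteins encoded in mitochondrial DNA, which are subunits of the respiratory chain and the ATP synthase. Its proteins are all encoded in the nucleus, made in the cytosol and imported. The small subunit reads the mRNA, and the large subunit joins the amino acids and holds the tunnel through which the new chain leaves. Many of its proteins have bacterial relatives, and others are found in mitochondria only. In this measurement of whole-population RNA, fewer cells of a type and less RNA per cell cannot be told apart.

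All 77 protein-coding members, 49 of the large and 28 of the small subunit by symbol, were detected on all 4 arrays, at a detection p under 0.01 against the negative controls. The other 2 symbols, MRPL42P5 and MRPS31P5, are pseudogenes, and their 3 probes were detected on 0 arrays. The members lie on 21 chromosomes, with at most 8 on any of them. Over the whole arrays, 28.3% to 29.6% of probes were detected, and 9771 genes were detected on at least 1 array. Of 9 epithelial and ovarian markers 4 were detected, EPCAM, KRT18 and KRT19 on all 4 arrays and KRT8 on 1, and of 8 tumour-initiating markers 1, ALDH1A1. The other 7, CD44, PROM1, KIT, ABCG2, SOX2, NANOG and POU5F1, were detected on 0 arrays. Leukocyte and endothelial markers were detected on 0 arrays, and 2 of 4 fibroblast markers, COL1A2 and DCN, on all of them. KRT19 read -0.09, -0.39 and -0.70 against 0 h at 2, 4 and 6 h, lower at each later time. EPCAM went the other way, at 0.30, 0.56 and 0.30, and KRT18 read 0.08, -0.28 and -0.12 on its brightest probe. KRT8, detected on 1 array, read 0.57, -0.10 and 0.42. On its brightest probe COL1A2 read 0.50, -0.13 and -0.03, with -0.92 on its other probe at 6 h. DCN read -0.26, -0.20 and -0.28, with -0.44 on its other probe at 6 h. The part of these markers in the members' differences was not tested.

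As a group, the mitochondrial ribosomal protein genes read slightly lower after niclosamide. Their median log2 difference from 0 h was -0.10 at 2 h, -0.22 at 4 h and -0.23 at 6 h, against medians of all genes of -0.02, 0.01 and -0.02. Below 0 lay 46 of the 77 at 2 h, 63 at 4 h and 58 at 6 h. Of all genes, 52.4%, 48.9% and 51.5% lay below 0 at the same times. The 2 h share of members, 59.7%, was near the background, whereas the shares of 81.8% at 4 h and 75.3% at 6 h were above it. Each value is a log2 level on the later array minus that on the 0 h array, and with 1 array per time it has no error and no p-value. The 3 comparisons share the 0 h array. When all genes were ranked by level and cut into equal classes, 48 members fell in the brightest, whose genes had medians of -0.02, 0.02 and -0.01. With arrays scaled to a common median and not quantile normalized, the counts below 0 were 43, 51 and 55 at 2, 4 and 6 h. All genes then had medians of 0.049, 0.15 and 0.083 and the members -0.052, -0.124 and -0.126. Relative to all genes, the members then lay at -0.101, -0.274 and -0.209.

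**Figure D1:**
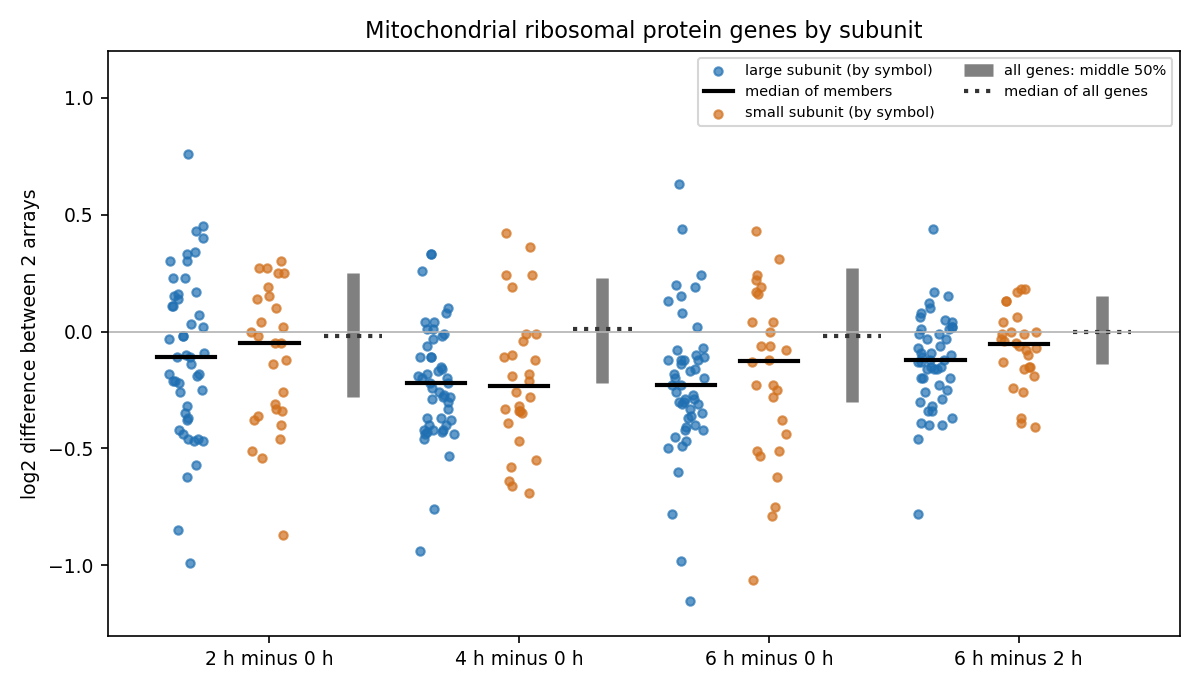
Log2 differences between arrays (vertical axis) for the 49 large and 28 small subunit genes in 4 comparisons; each point is a gene, black bars are medians of members, grey bars are the middle 50% of all genes and dotted bars their medians. At 4 h 40 large and 23 small subunit genes lie below 0, or 81.6% and 82.1%, against 48.9% of all genes. The medians of large and small are -0.22 and -0.24.

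Few members moved far. At 6 h, 8 of 77 were at least 1.5-fold lower and 1 was at least 1.5-fold higher, against 9.8% and 9.44% of all genes. The count of lower members is thus near the background, and that of higher members is under it. At least 2-fold lower were 2 members, MRPL17 and MRPS18A, and 0 were 2-fold higher, against 1.93% and 1.77% of all genes. The robust spread of the members' 6 h differences was 0.259, narrower than the 0.421 of all genes. At 2 h the 2 spreads were closer, 0.363 and 0.386, and at 4 h they were 0.257 and 0.331. All genes include dimmer ones, and the spread was not compared at matched level.

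MRPL17, the relative of a bacterial protein near the exit of the peptide tunnel, had log2 levels of 11.65, 11.28, 10.71 and 10.50 at 0, 2, 4 and 6 h. Every later array was lower than the one before it, and at 6 h the gene stood 2.22-fold below 0 h. MRPL52, a protein found in mitochondrial ribosomes only, read 8.77, 7.78, 8.01 and 7.79. Its lower level was in place at 2 h, 1.99-fold below 0 h, and differed by 0.01 between 2 h and 6 h. MRPL1, whose bacterial relative forms the mobile stalk beside the tRNA exit site, read 8.96, 8.34, 8.57 and 8.18. The 6 h array was the lowest and the 4 h array the highest of the later ones. MRPL36, a relative of one of the smallest bacterial ribosomal proteins, read 11.59, 11.12, 11.06 and 10.99, so that its 3 treated arrays lay close together and below 0 h. Below these 4 in size came MRPL33 at -0.50, MRPL20 at -0.49, MRPL19 at -0.47 and MRPL22 at -0.45.

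In the small subunit by symbol, MRPS18A read 9.38, 8.51, 8.69 and 8.32. The treated arrays were all lower, and the 6 h array was 2.09-fold below 0 h. MRPS18A is 1 of 3 human relatives of bacterial S18, and structures of the mitochondrial ribosome place it in the large subunit despite its symbol. Its paralogs were near 0 h at the same time, MRPS18B at -0.08 and MRPS18C at -0.06. MRPS26, which has no bacterial relative, read 10.92, 10.38, 10.28 and 10.14. MRPS25, a small subunit protein mutated in a mitochondrial encephalomyopathy, read 8.60, 8.26, 8.13 and 7.85. Both were lower on each later array than on the one before, at 1.73-fold and 1.68-fold below 0 h by 6 h. MRPS12, whose bacterial relative sits at the decoding centre, read 11.67, 11.22, 11.09 and 11.06 on its brightest probe. Further probes of MRPS12 read 0.11 and 0.17 at 6 h, so its value of -0.62 was not shared by the gene's probes. MRPS17 at -0.53, MRPS16 at -0.51, MRPS7 at -0.51 and MRPS28 at -0.44 came next.

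A smaller set stood above 0 h at 6 h, 9 genes of the large and 10 of the small subunit. MRPL2, whose bacterial relative lies beside the peptidyl transferase centre, read 8.90, 9.66, 9.23 and 9.53, 1.55-fold above 0 h at 6 h. All of its treated arrays were higher than 0 h, most so at 2 h. MRPL58, a peptidyl-tRNA hydrolase that frees stalled ribosomes, read 8.90, 9.34, 8.94 and 9.35, with its 4 h array close to 0 h. MRPS30, a further protein that structures place in the large subunit, read 11.20, 11.50, 11.57 and 11.64 and was the highest of the MRPS genes at 0.43. MRPS2 stood at 0.31, MRPS24 at 0.24, MRPL4 at 0.24, MRPS5 at 0.22, MRPL55 at 0.20, and MRPS35 and MRPL49 at 0.19. Of 4 further members mutated in inherited mitochondrial disease, MRPS22 stood at 0.04, MRPL3 at 0.15, MRPL44 at -0.12 and MRPS34 at -0.25.

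**Figure D2:**
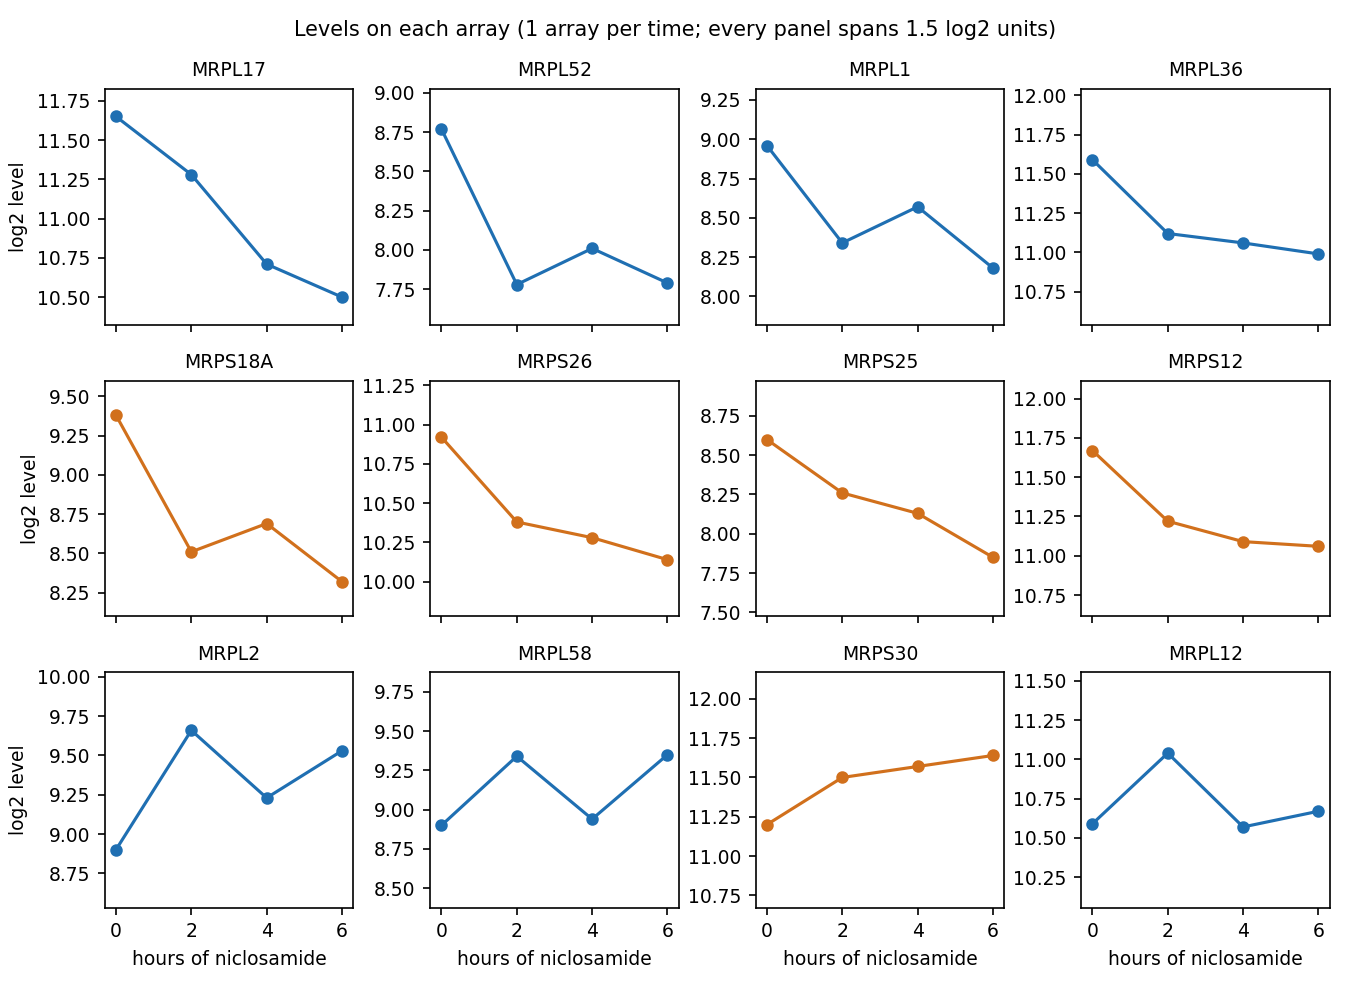
Log2 levels (vertical axis, 1.5 log2 units in each panel) of 12 members by hours of niclosamide (horizontal axis), 1 array per point, large subunit by symbol in blue and small in orange. MRPL17, MRPS26 and MRPS25 are lower on each later array, while MRPL2 and MRPS30 stay above their 0 h level.

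At 2 h, 4 members were at least 1.5-fold lower and 1 at least 1.5-fold higher, against 7.99% and 7.86% of all genes. Both counts were under the background share. At 2-fold, 0 members were lower or higher, against 1.29% and 1.35% of all genes. MRPL52 at -0.99, MRPS18A at -0.87, MRPL32 at -0.85 and MRPL1 at -0.62 were the lower ones, and MRPL2 at 0.76 the higher one. MRPL32 is a zinc-binding protein that, in yeast and mouse, must be cut by the inner-membrane m-AAA protease before it joins the ribosome. It read 10.91, 10.06, 10.62 and 10.50, so that its lowest array was that of 2 h. MRPL12, which forms the flexible stalk for translation factors and also binds the mitochondrial RNA polymerase, read 10.59, 11.04, 10.57 and 10.67. Its 2 h array stood apart from the others, at 0.45. MRPL10, which anchors that stalk, read -0.47 at 2 h. MRPL11 at the stalk base read -0.21 on its brightest probe and -0.94 on another probe detected on all 4 arrays. MRPS30 at 0.30, MRPS5 at 0.27 and MRPS27 at 0.27 were the highest of the small subunit, and MRPS26 at -0.54 and MRPS7 at -0.51 followed MRPS18A among the lowest.

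At 4 h, 5 members were at least 1.5-fold lower and 0 were at least 1.5-fold higher, against 4.58% and 4.25% of all genes. MRPL17 at -0.94, MRPL52 at -0.76, MRPS18A at -0.69, MRPS7 at -0.66 and MRPS26 at -0.64 were the 5. With arrays scaled to a common median, 1 member was 1.5-fold lower at 4 h. At 2-fold, 0 members were lower or higher, against 0.423% and 0.217% of all genes. MRPS7, whose bacterial relative organises the head of the small subunit, read 10.51, 9.99, 9.84 and 10.00, with all treated arrays below 0 h. The highest members were MRPS27 at 0.42, a pentatricopeptide repeat protein, MRPS30 at 0.36, MRPL2 and MRPL49 at 0.33, MRPL3 at 0.26, and MRPS9 and MRPS35 at 0.24. The middle 50% of the members reached from -0.39 to -0.04. MRPL36 at -0.53, MRPS12 at -0.58 and MRPS17 at -0.55 were just short of 1.5-fold.

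**Figure D3:**
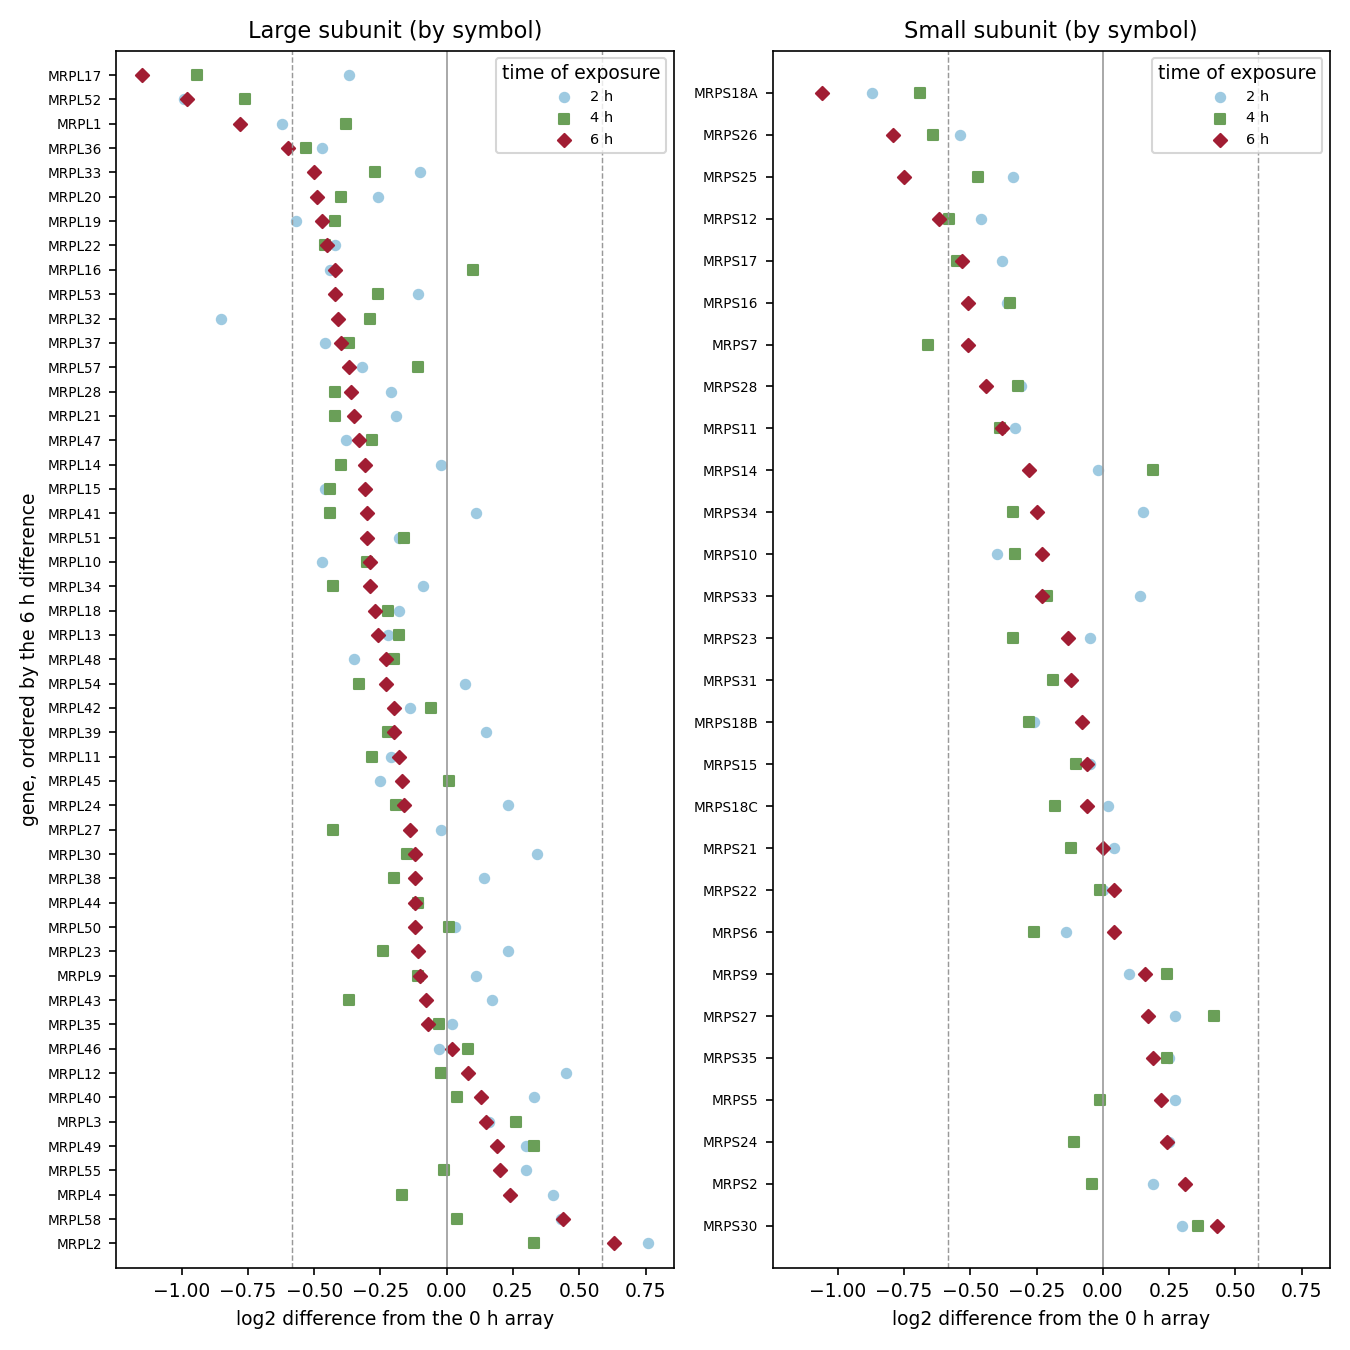
Log2 difference from the 0 h array (horizontal axis) at 2 h (circles), 4 h (squares) and 6 h (diamonds) for each of the 77 members, ordered by the 6 h value; dashed lines mark 1.5-fold. MRPL17, MRPL52 and MRPS18A are the lowest at 6 h and MRPL2 the highest.

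The 6 h and 2 h arrays, neither of which is the 0 h array, also differed. This pair was chosen with earlier results known. The members' median was -0.10 for 6 h minus 2 h, against 0.00 for all genes, and 56 of 77 lay below 0, or 72.7%, against 49.7% of all genes. MRPL17, at -0.78, was the 1 member at least 1.5-fold lower, and 0 were at least 1.5-fold higher, against 1.34% and 1.52% of all genes. At 2-fold, 0 members were lower or higher, against 0.141% and 0.152%. MRPL30 at -0.46, MRPS25 at -0.41, MRPL33 at -0.40 and MRPL41 at -0.40 came next. MRPL32, whose 2 h array was its lowest, was the highest at 0.44. Of the other genes that were low against 0 h at 6 h, MRPL52 stood at 0.01, MRPL36 at -0.13, MRPL1 at -0.16 and MRPS18A at -0.19.

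Median differences for large and small were -0.11 and -0.05 at 2 h, -0.22 and -0.24 at 4 h, and -0.23 and -0.12 at 6 h. Large minus small was therefore -0.05, 0.02 and -0.11 at the 3 times and -0.07 for 6 h minus 2 h. These gaps are smaller than the spread of members within either subunit, whose middle 50% at 6 h reached from -0.37 to -0.11 for large and from -0.46 to 0.07 for small. Below 0 at 6 h were 40 of 49 large and 18 of 28 small subunit genes, 81.6% and 64.3%, against 51.5% of all genes. The shares of large and small were close in the other comparisons. They were 61.2% and 57.1% at 2 h, 81.6% and 82.1% at 4 h, and 73.5% and 71.4% for 6 h minus 2 h. All genes then had 52.4%, 48.9% and 49.7%. Genes are not replicates of a condition, so no test was made of any gap between subunits. Moving MRPS18A and MRPS30 to the large subunit, where structures place them, left all gaps between the medians the same to 2 decimals.

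Splitting each subunit by descent, with bacterial relatives named from the unified ribosomal protein nomenclature, showed the lowest medians in the large subunit proteins that have one. These 30 genes had medians of -0.19, -0.28 and -0.29 at 2, 4 and 6 h. Below 0 at these times lay 20, 27 and 25 of them, or 66.7%, 90% and 83.3%. The shares of all genes were 52.4%, 48.9% and 51.5%. The 21 mitochondria-specific large subunit genes had medians of -0.03, -0.16 and -0.20. In the small subunit, the 16 genes with a bacterial relative had medians of -0.10, -0.22 and -0.15 and the 10 others -0.03, -0.25 and -0.12. The order of the descent classes therefore differed between subunits at 4 h. MRPS18A and MRPS30 count here as mitochondria-specific large subunit genes, as in that nomenclature, although MRPS18A has S18 as a relative. This grouping was added after values were seen.

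For 20 members, several probes were detected on at least 1 array, and they give the only check of a value within an array. At 6 h minus 0 h all probes lay below 0 in 13 of these genes, all above 0 in 3 (MRPL4, MRPS21 and MRPS27), and on both sides in 4 (MRPL18, MRPL35, MRPL55 and MRPS12). At 4 h the counts were 14 below, 1 above and 5 mixed, and at 2 h 10, 3 and 7. For 6 h minus 2 h they were 13, 3 and 4. Probe agreement was not counted over all genes with several probes, so these counts have no background share beside them. MRPL11 was mixed at 4 h only through a probe at 0.37 that was detected on the 4 h array alone. Its probes detected on all 4 arrays read -0.28 and -0.70 at that time. The median gap between a gene's lowest and highest probe was 0.24 at 6 h, about the size of the members' median difference.

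Among the genes below 0 on every probe, the gap between probes ran from 0.00 in MRPL45 to 0.63 in MRPL11. MRPL33 read -0.50 and -0.39 at 6 h, MRPL20 read -0.69 and -0.49, MRPL22 read -0.78 and -0.45, and MRPS11 read -0.62 and -0.38. The others were MRPL11, MRPL24, MRPL42, MRPL43, MRPL45, MRPL47, MRPL57, MRPS18B and MRPS33. MRPL11 ranged from -0.82 to -0.18, MRPL47 from -0.72 to -0.33 and MRPL57 from -0.72 to -0.37. The -0.72 of MRPL57 came from a probe not detected on the 6 h array. A further MRPL11 probe, at -0.27, was not detected on the 0 h or the 6 h array. Probes of MRPL45 (-0.17 and -0.16), MRPS18B (-0.16 and -0.08) and MRPL42 (-0.20 and -0.08) lay closer together and nearer to 0. Probes of MRPL35 spread from -0.46 to 0.27 and those of MRPL55 from -0.26 to 0.20, so these genes had no settled direction. The 2 members past 2-fold, MRPL17 and MRPS18A, and also MRPL52, MRPL1, MRPL36, MRPS26, MRPS25 and MRPL2, had 1 detected probe each, and no second probe checks them.

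**Figure D4:**
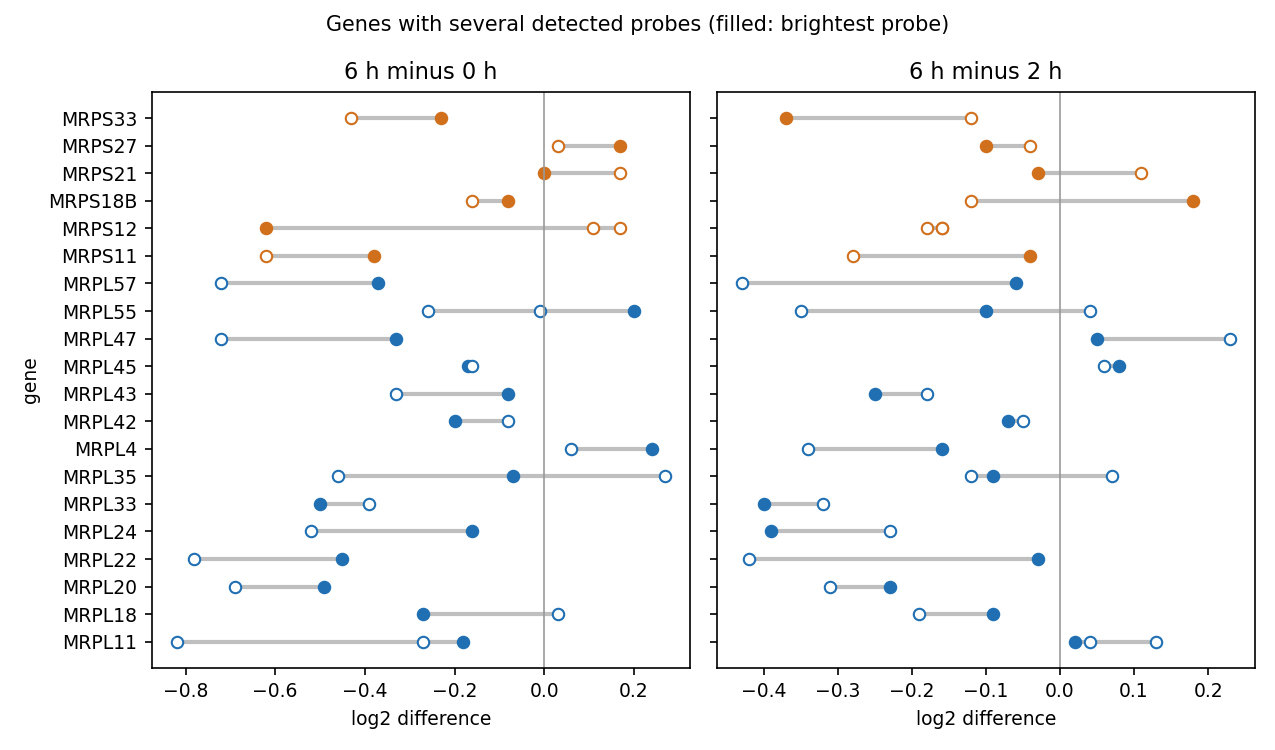
Log2 difference (horizontal axis) of every probe detected on at least 1 array, for the 20 members with several. Panels show 6 h minus 0 h and 6 h minus 2 h. Filled points are the brightest probe and grey lines join probes of a gene. In 13 genes all probes lie below 0 in the left panel, and MRPS12 shows its brightest probe at -0.62 and the others above 0.

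A linear trend over hours, fitted to all 9771 genes with limma and 2 residual degrees of freedom, passed at an adjusted p under 0.05 in 0 of 77 members, against 0.0102% of all genes falling and 0.0205% rising. MRPL17 came nearest, with a slope of -0.20 per hour on the log2 scale (SE 0.0371). Its limma adjusted p was 0.114, place 14 of all genes. MRPS18A (-0.15 per hour, SE 0.0494) and MRPS26 (-0.12, SE 0.0407) followed, both with a limma adjusted p of 0.243. At an unadjusted p under 0.05, 10 members had a negative slope and 0 a positive one, against 7.2% and 7.1% of all genes. Besides those 3 they were MRPS25, MRPS12, MRPL33, MRPL52, MRPL36, MRPS17 and MRPL1. MRPS12 is counted by its brightest probe, and its other detected probes read 0.11 and 0.17 at 6 h. The count of 10 moved with the arrays and the scaling. It was 5 with arrays scaled to a common median, against 4.26% of all genes. Leaving out the 2 h array gave 22 (18% of all genes), leaving out 4 h gave 6 (5.74%), and leaving out 0 h or 6 h gave 1 each (1.54% and 1.66%). Slopes were below 0 in 61 of 77 members, or 79.2%, against 50.1% of all genes, and in 56 to 63 when an array was left out. With 1 array per time, curvature over time and array error enter the same residual. Without the 2 h array, which leaves 1 residual degree of freedom, 14 members passed with a falling and 1 with a rising slope, as did 1216 and 1236 of all genes.

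Promoter sequences, credited to RefSeq on GRCh38.p14, are shown for the 6 members lowest at 6 h, to set their start-site region beside motifs known from promoters of nuclear genes for mitochondrial proteins. Each runs from 100 bases before the annotated start to 30 after it, and capitals mark a match on either strand to CCGGAAG (the core of ETS factors such as GABPA), ATGGCGGC (core of YY1) or GCGC, any base and TGCGC in a row (NRF1).
MRPL17: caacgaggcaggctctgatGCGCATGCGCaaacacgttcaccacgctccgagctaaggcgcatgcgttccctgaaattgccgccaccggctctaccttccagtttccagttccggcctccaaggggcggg
MRPS18A: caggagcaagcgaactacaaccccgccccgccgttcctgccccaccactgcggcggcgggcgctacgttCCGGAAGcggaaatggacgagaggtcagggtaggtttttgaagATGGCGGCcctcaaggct
MRPL52: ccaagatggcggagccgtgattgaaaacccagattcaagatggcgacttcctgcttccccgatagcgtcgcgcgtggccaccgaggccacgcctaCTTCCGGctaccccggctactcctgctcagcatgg
MRPS26: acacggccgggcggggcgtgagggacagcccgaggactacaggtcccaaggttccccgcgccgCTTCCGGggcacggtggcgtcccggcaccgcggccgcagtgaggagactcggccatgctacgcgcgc
MRPL1: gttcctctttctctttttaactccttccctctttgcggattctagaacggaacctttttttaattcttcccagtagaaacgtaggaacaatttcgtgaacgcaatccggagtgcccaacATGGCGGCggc
MRPS25: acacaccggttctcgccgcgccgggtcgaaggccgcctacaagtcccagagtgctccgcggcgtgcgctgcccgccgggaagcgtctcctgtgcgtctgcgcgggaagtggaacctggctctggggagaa

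The stretches lie at chr11:6683311-6683440 on the minus strand for MRPL17, chr6:43687762-43687891 on the minus strand for MRPS18A, chr14:22829787-22829916 on the plus strand for MRPL52, chr20:3045952-3046081 on the plus strand for MRPS26, chr4:77862730-77862859 on the plus strand for MRPL1 and chr3:15065286-15065415 on the minus strand for MRPS25. MRPL17 held the NRF1 motif, MRPL52 and MRPS26 the ETS motif, MRPL1 the YY1 motif, and MRPS18A both of the latter. The YY1 matches of MRPL1 and MRPS18A lay after the annotated start, at base 20 and base 13, and so in transcribed sequence. MRPS25 held none of these motifs, here or in its whole window. Of the other members 1.5-fold lower at 6 h, MRPS12 held the ETS motif, and MRPL36 the YY1 and, farther from the start, the NRF1 motif.

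Over the 69 members with a promoter entry, in windows of 300 bases, CCGGAAG was found in 29, or 42.0%, against 10.7% of 27305 promoters of all genes. ATGGCGGC was found in 19 (27.5% against 3.21%), and the NRF1 motif in 8 (11.6% against 6.28%). An ETS or YY1 match was present in 43 of the 69, or 62.3%, against 13.1% of all promoters. The 27305 promoters were not limited to genes detected on these arrays, whereas all of the 69 members were detected. Large and small subunit promoters held the ETS motif in 40.5% and 44.4% and the YY1 motif in 23.8% and 33.3%. The E-box CACGTG of MYC and MAX was found in 8.7% against 7.43%, CCAAT in 29.0% against 35.7%, and TTGCATCA, a site type of ATF4 with CEBP proteins, in 0 of 69 against 0.923%. These motifs were searched on both strands and can overlap. The windows take in 50 bases after the annotated start, and matches before and after it were not counted apart. Median 6 h differences were -0.23 with and -0.18 without CCGGAAG, -0.12 with and -0.23 without ATGGCGGC, and -0.27 with and -0.20 without the NRF1 motif. A match describes letters in the window and says nothing of binding in these cells. MRPL10, MRPL13, MRPL15, MRPL2, MRPL21, MRPL23, MRPL35 and MRPS28 had no entry.

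Other genes of mitochondrial translation were compared as lists. Nuclear-encoded oxidative phosphorylation subunits had medians of 0.00, -0.17 and -0.13 at 2, 4 and 6 h and -0.11 for 6 h minus 2 h. Of 63 measured at 6 h, 3 were at least 1.5-fold lower and 0 higher, or 4.76% and 0%. Both shares were under those of all genes, 9.8% and 9.44%. The 3 were NDUFS8 at -0.77, NDUFA8 at -0.70 and NDUFS7 at -0.60, all of complex I, which also held NDUFV2 at 0.32. NDUFS1 of the same complex, at -0.68, was detected on 3 arrays and is not in that count. ATP5MF, not of complex I, stood at -0.58 on its brightest probe and -0.67 on its other one. At the other end stood ATP5F1D at 0.51 (0.26 on its other probe), UQCRC1 at 0.48 and ATP5F1A at 0.34 (0.03 on its other probe). Cytosolic ribosomal proteins, 73 in number, had medians of -0.01, -0.04 and -0.01, with 1 at least 1.5-fold lower (RPL29 at -0.72) and 1 higher (RPL10L, a close paralog of RPL10, at 1.05) at 6 h. Each count, 1.37% of the list, was also under the share of all genes. RPL21 at -0.56 and RPL26 at -0.49 were the next lowest, and RPS26 at 0.51 and RPL19 at 0.40 the next highest. The members' medians at 4 h and 6 h were thus nearer to those of the oxidative phosphorylation list than to those of the cytosolic ribosome. No test of these differences was made, and no list had a member with an adjusted limma trend p under 0.05. The lists also differ in brightness. The highest 0 h log2 levels were 15.38 for cytosolic ribosomal proteins (RPS2), 14.52 for oxidative phosphorylation (ATP5F1B) and 12.81 for members (MRPS6). The part of brightness in the medians was not tested.

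The 12 mitochondrial translation factors had medians of -0.15, -0.09 and -0.10, and TUFM, the elongation factor that brings tRNAs to the ribosome, was the highest at 6 h. It read 11.10, 11.61, 11.39 and 11.74, above 0 h on every treated array, 0.64 at 6 h on 1 detected probe. LRPPRC, which stabilises mitochondrial mRNAs, stood at 0.19 and MTRFR at 0.10, while TACO1, an activator of COX1 translation, was lowest at -0.49, with MTIF2 and GUF1 at -0.29.

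The 21 genes of ribosome assembly and rRNA modification had medians of -0.01, -0.06 and 0.02, with 2 at least 1.5-fold lower and 2 higher at 6 h. Each count, 9.52% of the list, was near the share of all genes, 9.8% lower and 9.44% higher. MTG1, a GTPase of large subunit assembly, read 7.46, 6.84, 6.97 and 6.64, lowest at 6 h. TFB1M, which dimethylates the small subunit rRNA, read 10.30, 10.18, 9.86 and 9.65 and was lower on each later array. MRM3, an rRNA methyltransferase, stood at -0.52. DHX30, an RNA helicase of mitochondrial RNA granules, read 10.98, 11.67, 11.63 and 11.78 on its brightest probe, 0.80 at 6 h, and 0.13 on a second. METTL15 stood at 0.71, and FASTKD2 at 0.35. Among proteins of the ribosome that lack an MRP symbol, DAP3 of the small subunit gave 0.11 by its brightest and -0.52 by its other probe, and CHCHD1 stood at -0.32. GADD45GIP1, at -0.39, was detected on 2 arrays, and PTCD3 on 0.

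Mitochondrial transcription and RNA processing genes, 14 in number, had medians of 0.07, 0.01 and -0.02 and none was 1.5-fold from 0 h at any of the 3 times. Of all genes, 7.99%, 4.58% and 9.8% were 1.5-fold lower at these times and 7.86%, 4.25% and 9.44% higher. POLRMT, the mitochondrial RNA polymerase, stood at 0.42 at 6 h, SLIRP at 0.23, and MTPAP and TWNK at 0.19. TFAM, which packs mitochondrial DNA, stood at -0.43, PRORP at -0.29, and PNPT1 at -0.17 on its brightest probe and -0.63 on its other one.

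**Figure D5:**
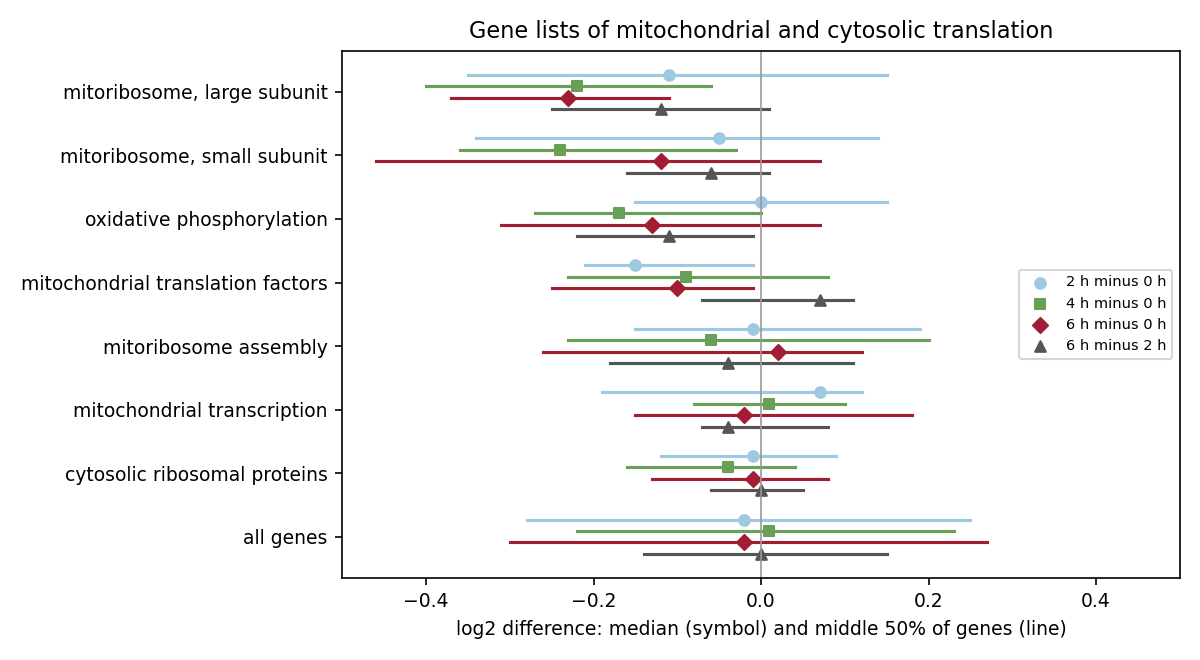
Median log2 difference (symbols) and middle 50% of genes (lines) for the 2 mitoribosome subunits, 5 other lists and all genes, in 4 comparisons. The large and small mitoribosome subunits and the oxidative phosphorylation list lie below 0 at 4 h, with medians of -0.22, -0.24 and -0.17, and cytosolic ribosomal proteins lie at -0.04.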

How the data were processed

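Bead summary intensity values, not normalized, were deposited for every probe; the submitters' processing notes name BeadStudio (version not given in the sources used here). The deposited detection p-values are, per the file headers, 1 per probe and array. The authors' second table of intensity values, whose columns have equal quantiles, served as an alternative. The analysis ran in R 4.3.3 on limma 3.58.1 (neqc: normexp background with negative controls inferred from detection p-values, offset 16, log2, quantile normalization). A gene was represented by its brightest probe among those detected at p under 0.01 on at least 1 array. Comparisons count genes detected on both arrays. Counts over the several probes of a gene take every probe detected on at least 1 array. For the trend, limma's lmFit and eBayes allowed the variance to follow intensity (2 residual and 9.59 prior degrees of freedom, 2-sided, Benjamini-Hochberg over 9771 genes). This fit was first tested on simulated data. The simulated slopes were steeper than any member's here, and the simulated errors were independent, with none shared by an array. How the fit behaves with such shared error was not tested. The number of arrays limits the precision, and without replicates a median was called moved under another setting when it shifted by 0.1 or more. All 113 member probes had an Entrez identifier in the RefSeq table, and members kept the platform's symbols.

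Members and lists were chosen with earlier results of these data known. Genes were named by a rule: members 1.5-fold apart in a comparison, the 5 highest and 5 lowest per subunit at 6 h and 3 at 2 h and 4 h, members with several detected probes, the 10 smallest trend p-values, the 3 highest and lowest of other lists at 6 h, and a set of structural and disease genes. Further genes were named after their values were seen.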

Additional observations from a re-analysis of the deposited data

How the results depend on the processing

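No paired analysis was possible because each time has 1 array. Alternatives covered normalization, offset, detection filter, probe choice, subunit assignment, fold and variance model, and 1 array left out of the trend. The median of all members stayed below 0 in every normalization, filter and probe setting, from -0.098 to -0.052 at 2 h, -0.25 to -0.124 at 4 h, -0.228 to -0.126 at 6 h and -0.128 to -0.064 for 6 h minus 2 h. Median scaling moved the small subunit at 4 h to -0.135 and all members at 6 h to -0.126, with 1 member 1.5-fold lower at 4 h and 2 higher at 6 h. The median of all genes was then 0.15 at 4 h and 0.083 at 6 h. With every detected probe as a unit, which counts more units, 8 were lower at 4 h and 13 at 6 h, and the median probe of MRPS12 read 0.111 at 6 h, opposite to its brightest. At 2-fold, 2 members were lower at 6 h and 0 in the other comparisons, and 0 were higher. Leaving out 1 array gave 0 to 14 falling and 0 to 1 rising members in the trend, and the high counts came without the 2 h array. With 4 arrays the counts were 0 in all settings, and the adjusted p of MRPL17 ranged from 0.0607 to 0.201.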
